A study of Mus musculus with 5 samples.

Results

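The 49 genes described here encode the enzymes and transporters that make, remodel, cut and move phosphatidylcholine and its sister phospholipids. They were chosen by name, with earlier results of these data known, and the brightest probe set of each gene on the array stood for it. All 49 were found among the 21630 genes tested. The cells were mouse embryonic fibroblasts from littermate embryos with or without functional Mdr2, taken to passage 40 on the serial-passage schedule that defines 3T3 lines. RNA from 3 samples of genotype MDR2-/- (replicates 1, 2 and 3) and 2 of genotype MDR2+/+ (replicates 2 and 3) was hybridised to 1 Affymetrix array each. The labels name neither the disrupted part of the gene, the mouse strain nor separate embryos or cultures behind the replicates, so the p-values measure the spread between these samples alone, which may be technical.

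Mdr2 is the older name of Abcb4, a pump that moves phosphatidylcholine to the outer leaflet of the hepatocyte canalicular membrane and so supplies phospholipid to bile. Phosphatidylcholine itself is made in most cells by the Kennedy pathway, in which choline is taken up, phosphorylated, activated with CTP and joined to diacylglycerol; the liver also methylates phosphatidylethanolamine. Phospholipases A2 then remove a fatty acid, lysophospholipid acyltransferases put another back, and flippases and scramblases set which leaflet of the membrane a lipid lies in. Flippases of the P4-ATPase family move lipids inward with ATP, and scramblases let them pass both ways without it.

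The targeted gene did not check the labels. Abcb4 gave log2 signals of 6.002, 4.63 and 5.74 on the 3 arrays labelled knockout, all above the 4.05 and 3.95 of wild type (limma adjusted p = 0.358), and exceeded the antigenomic background on 1 array. That background is the 95th percentile, on the same array, of 45 probe sets that match no mouse sequence. Probes outside the disrupted part would check nothing, and the knockout arrays are called so below by their label alone. Xist was higher on those arrays (log2 fold change 4.41) and the Y-linked Ddx3y lower (-4.40), so genotype and sex cannot be told apart. In bulk RNA, fewer cells of a type and less RNA per cell cannot be told apart either. Array medians lay between 4.27 and 4.33, and pairs of arrays correlated at 0.968 to 0.993 across genes. Of 10 fibroblast markers 8 lay above background on every array, among them Col1a1, Vim and Pdgfra. Of the 10, 8 had the lower mean in knockout and 2 the higher, Thy1 and Lum. Of the 8 lower, 6 had no overlap between groups, as did 14.4% of all genes in that direction. Among these 6 were Col3a1 (log2 fold change -1.02), Col1a1 (-0.82), Fn1 (-0.50) and Dcn (-1.82). Dcn read 10.245, 7.61 and 10.44 against 11.45 and 11.055 (adjusted p = 0.554), with knockout replicate 2 far below the other knockout arrays. Thy1, a fibroblast surface protein, was above background only on the knockout arrays, where it read 10.55, 9.70 and 10.16 against 5.60 and 5.22 (adjusted p = 0.0523). Of 38 markers of other cell types 35 were above background on no array and 0 on all 5. The mean log2 signal of these 38 lay between 3.53 and 3.56 on the knockout arrays and between 3.42 and 3.45 in wild type. Of the 38, 18 had the higher mean in knockout, 13 the lower, and 7 were equal on all arrays. The adipocyte lipid carrier Fabp4 read 6.91, 5.49 and 5.57 against 3.83 and 4.18 (adjusted p = 0.279). The epithelial cadherin Cdh1 read 4.99, 5.34 and 5.63 against 3.88 and 4.38 (adjusted p = 0.224), below background on every array. The macrophage marker Cd68 went the other way, at 4.61, 4.61 and 4.58 against 6.25 and 4.35. The neural marker Map2 was above background on 4 arrays (log2 fold change 0.33). The adipocyte hormone gene Adipoq was equal on all arrays. The part of these marker differences in the results below was not tested.

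No member passed the test. With limma at an adjusted p under 0.05, 0 of 49 members were called, where 0.301% of all genes tested were called. At an unadjusted p under 0.05, 6 members (12.2%) had the higher and 4 (8.16%) the lower mean in knockout, beside 5.36% and 8.29% of all genes. Every knockout array lay above both wild-type arrays for 11 members (22.4%) and below them for 4 (8.16%), beside 10.6% and 14.4% of all genes. Because the members were chosen with earlier results of these data known, such shares are description and no test of the list. With a difference of at least 2-fold as well, 0 members were higher and 2, Atp10d and Pla2g4a, lower (4.08%), beside 2.14% and 1.78% of all genes. The median log2 fold change was 0.02 over the members and 0.00 over all genes. The difference was under 0.5 on the log2 scale for 41 of the 49 members (83.7%), beside 86.9% of all genes. In level, 13 members exceeded the antigenomic background on all 5 arrays, 10 on some and 26 on none.

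**Figure D1:**
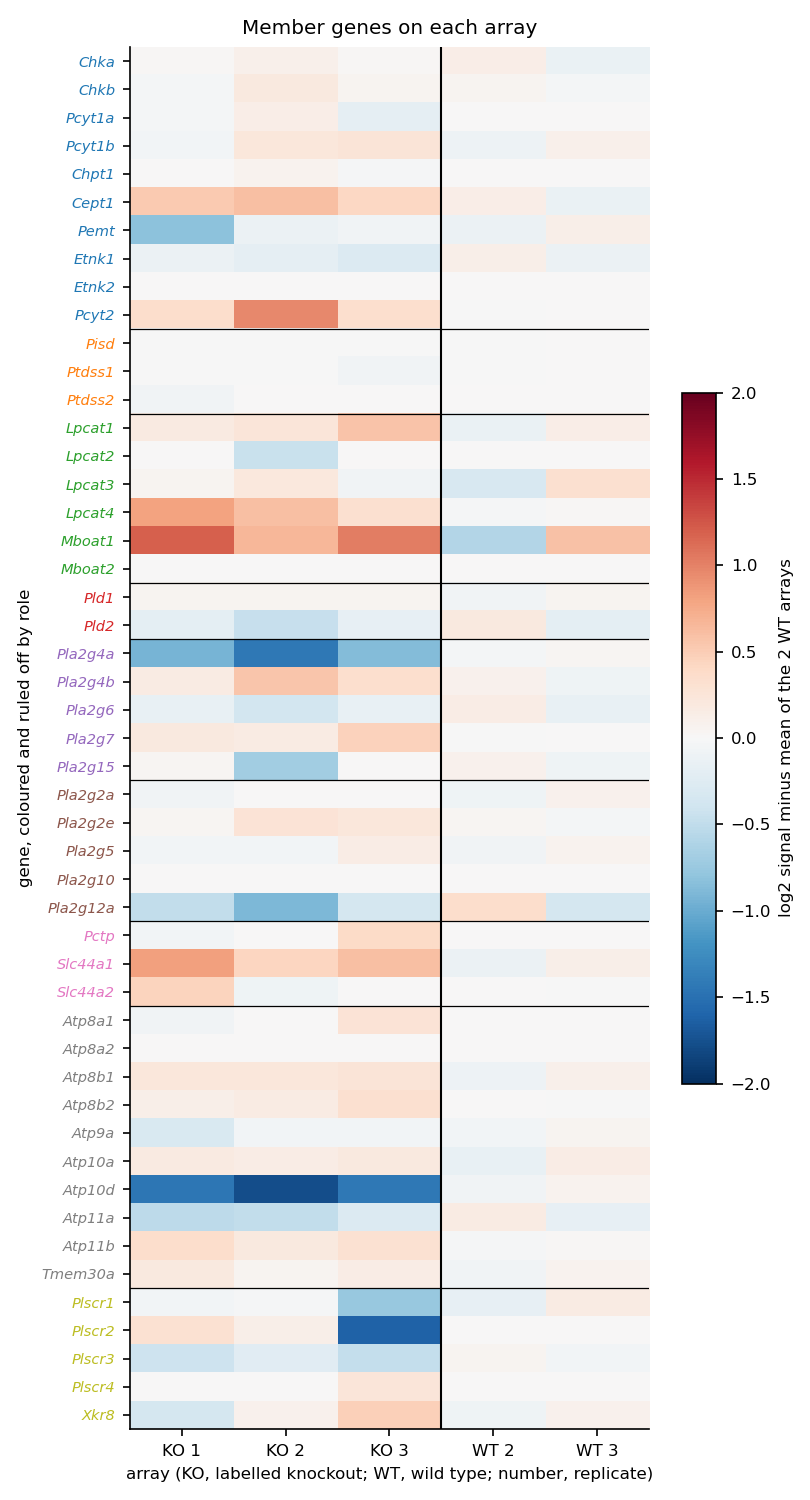
Colour gives the log2 signal of each member (rows, grouped by role) on each array (columns) minus the mean of the 2 wild-type arrays, red where higher and blue where lower. Atp10d and Pla2g4a are blue on all 3 knockout arrays, Mboat1 and Slc44a1 are red there, and Plscr2 is blue on knockout replicate 3 alone.

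The choline transporter Slc44a1 was the supply gene that differed most. Its signal read 8.46, 8.07 and 8.23 on the knockout arrays and 7.51 and 7.75 on the wild-type arrays. All 3 knockout arrays lay above both wild-type arrays, whose means were 8.25 ± 0.20 (SD, n = 3) in knockout and 7.63 ± 0.17 (SD, n = 2) in wild type. The log2 fold change of 0.62 ± 0.16 (SE) missed the threshold (adjusted p = 0.247). This probe set covers 146 bases inside the gene, and a second one, whose 38 probes span the whole gene, gave 7.66, 7.40 and 7.19 against 6.26 and 6.77, a difference of 0.90. Slc44a2, a related choline transporter, read 8.29, 7.76 and 7.85 against 7.85 and 7.84, so that knockout replicate 1 alone stood above wild type. Pctp, which carries single phosphatidylcholine molecules through the cytosol, had a log2 fold change of 0.11 and lay below background on every array.

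The Kennedy pathway kinases and the rate-setting cytidylyl-transferase had small differences. Chka and Pcyt1b were above background on no array, Chkb on 2 and Pcyt1a on 4. Chka and Chkb, which phosphorylate choline, had log2 fold changes of 0.05 (95% interval -0.23 to 0.33) and 0.06 (-0.19 to 0.32). Pcyt1a, the main CTP:phosphocholine cytidylyl-transferase, had -0.03 (-0.34 to 0.28), and its X-linked paralogue Pcyt1b 0.14 (-0.25 to 0.52). Chpt1, which joins CDP-choline to diacylglycerol, read between 7.14 and 7.23 on all 5 arrays, a log2 fold change of 0.02 with the narrow interval of -0.07 to 0.11. The intervals are those of the measured signals, and they do not show that the groups are equal. Both wild-type arrays had the same value for Chpt1 (7.162) and for Pcyt1a (6.104). For these genes the spread came from the knockout arrays alone. Chkb shares sequence with a read-through transcript into its neighbour Cpt1b, and its second probe set lies on the opposite strand and gave 4.89 on all 5 arrays.

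Cept1, which makes both phosphatidylcholine and phosphatidylethanolamine in the last Kennedy step, lay higher on the arrays labelled knockout. It read 6.11, 6.18 and 5.995 there and 5.72 and 5.45 in wild type, with no overlap between the groups. Mean levels of 6.10 ± 0.10 (SD, n = 3) in knockout and 5.58 ± 0.19 (SD, n = 2) in wild type differed by 0.51 ± 0.11 log2 units (SE; adjusted p = 0.208). Cept1 exceeded background on 3 arrays. On the ethanolamine branch, Pcyt2, the cytidylyl-transferase for phosphoethanolamine, read 4.12, 4.73 and 4.10 against 3.75 and 3.78. The groups again did not overlap, but knockout replicate 2 stood well above the other knockout arrays and every array was below background (log2 fold change 0.55, adjusted p = 0.502). Etnk1, an ethanolamine kinase, had a log2 fold change of -0.19, and Etnk2 was equal on all 5 arrays at 2.33.

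Pemt, the methyltransferase that turns phosphatidylethanolamine into phosphatidylcholine in liver, read 4.65, 5.35 and 5.41 on the knockout arrays and 5.35 and 5.59 in wild type. Only knockout replicate 1 was apart, and every array was below background. The enzymes that connect phosphatidylserine with the other phospholipids had small differences, but Ptdss1 and Pisd were above background on no array and Ptdss2 on 3. Ptdss1 and Ptdss2, which make phosphatidylserine by base exchange, and Pisd, the mitochondrial decarboxylase that turns it into phosphatidylethanolamine, had log2 fold changes of -0.03, -0.03 and -0.01. Their widest interval ran from -0.12 to 0.07. These intervals rest on tied values. Pisd read 5.181 on every array but wild-type replicate 3, and Ptdss2 5.945 on every array but knockout replicate 1. Ptdss1 read 5.272 on knockout replicates 1 and 2 and wild-type replicate 2.

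Among the lysophospholipid acyltransferases, which rebuild phospholipids with new fatty acids, 3 of 6 lay above wild type on every knockout array, as did 10.6% of all genes. With 6 genes, nothing is read from that share. Lpcat4 read 6.58, 6.37 and 6.08 against 5.74 and 5.79, and exceeded background on 3 arrays. Mean levels were 6.34 ± 0.25 (SD, n = 3) in knockout and 5.77 ± 0.03 (SD, n = 2) in wild type, and the log2 fold change of 0.58 ± 0.17 (SE) missed the threshold (adjusted p = 0.299). Lpcat1, the lung surfactant enzyme, read 6.12, 6.19 and 6.50 against 5.81 and 6.07, so that the highest wild-type array nearly reached the lowest knockout array (log2 fold change 0.33, adjusted p = 0.537). Mboat1, an acyltransferase that acts on lysophosphatidylserine and lysophosphatidylethanolamine, had the largest positive difference of all members, 0.96 ± 0.44 (SE; adjusted p = 0.516). It read 6.26, 5.72 and 6.09 on the knockout arrays, but 4.48 and 5.65 in wild type, so the wild-type arrays lay farther apart than the group means did. Mboat1 exceeded background on 2 arrays only. Against wild-type replicate 3 alone its difference was 0.38 (adjusted p = 0.814), and against replicate 2 alone it was 1.55 (adjusted p = 0.206).

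Lpcat3, the acyltransferase that puts polyunsaturated fatty acids into phosphatidylcholine, had a log2 fold change of 0.07. Its wild-type arrays, at 6.96 and 7.60, enclosed all 3 knockout arrays. Lpcat2, which also makes platelet-activating factor, read 4.48 on 4 arrays and 4.03 on knockout replicate 2. Mboat2 was equal on all 5 arrays.

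**Figure D2:**
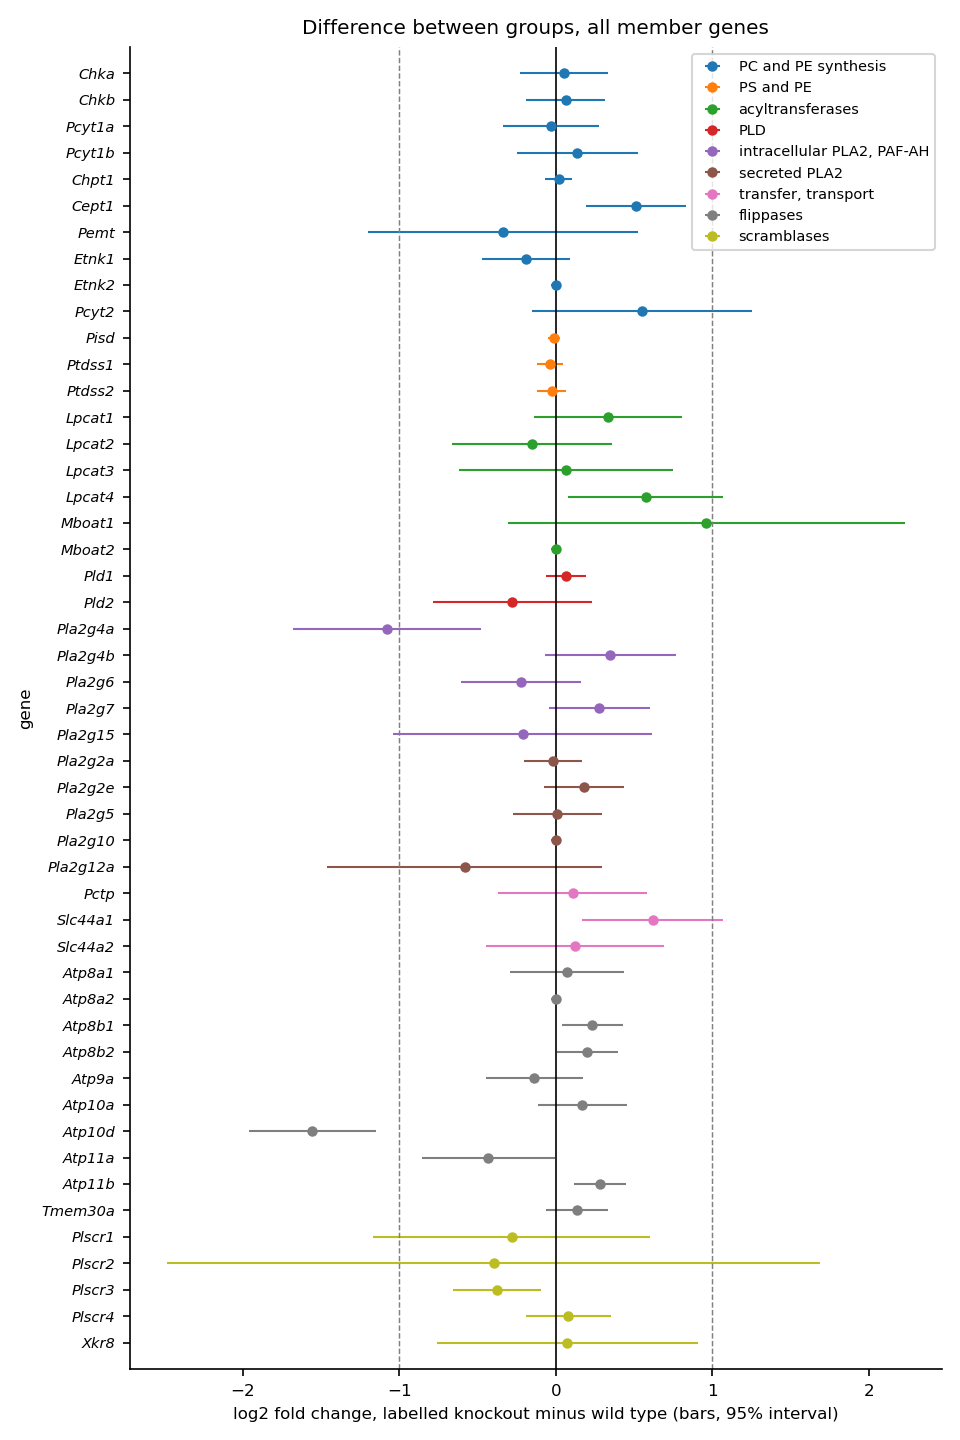
Points give the log2 fold change of each of the 49 members, labelled knockout minus wild type, and bars its 95% interval from limma; colours mark the roles and dashed lines a 2-fold difference. Only Atp10d has an interval wholly beyond the dashed line, from -1.96 to -1.15, and the interval of Plscr2, from -2.48 to 1.69, is the widest.

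Pla2g4a, the cytosolic phospholipase A2 that releases arachidonic acid from phospholipids for eicosanoid synthesis, lay lower on the arrays labelled knockout. It read 7.43, 6.94 and 7.49 there and 8.32 and 8.41 in wild type. Every knockout array was below both wild-type arrays, and all 5 were above background. Mean levels of 7.28 ± 0.30 (SD, n = 3) in knockout and 8.36 ± 0.06 (SD, n = 2) in wild type made a 2.11-fold difference (log2 fold change -1.08 ± 0.21, SE; adjusted p = 0.184). Its annotated position is chr1:151676748-151808414 (NCBIM37).

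The other phospholipases A2 of the cytosol and lysosome, and the secreted Pla2g7, lay on both sides of wild type. Pla2g4b, a second cytosolic form, was higher on every knockout array (log2 fold change 0.35, adjusted p = 0.465), but it lay below background and shares sequence with a read-through transcript from the neighbouring Jmjd7. Pla2g7, the secreted platelet-activating factor acetylhydrolase, read 3.59, 3.57 and 3.86 against 3.39 and 3.40, also below background. Pla2g6, the calcium-independent form, had a log2 fold change of -0.22 and lay below background on every array. Pla2g15, the lysosomal form, read 6.72, 5.995 and 6.70 against 6.77 and 6.601, with knockout replicate 2 alone apart. The phospholipases D, which release phosphatidic acid and choline, had log2 fold changes of 0.06 (Pld1) and -0.28 (Pld2). Pld1 was above background on no array and Pld2 on 1.

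Of the 5 secreted phospholipases A2, 4 lay below background on every array. Pla2g2a, which carries a natural loss-of-function allele in several laboratory mouse strains, read between 2.62 and 2.79. Its neighbours on chromosome 4, Pla2g2e and Pla2g5, read between 3.65 and 3.96, and Pla2g10 was equal on all arrays at 4.38. The probe sets of Pla2g2a, Pla2g2e and Pla2g5 lie between positions 138355159 and 138438734 (NCBIM37), and none of these 3 genes differed by more than 0.18. Pla2g12a, a more widely expressed member, read 5.48, 5.08 and 5.63 against 6.33 and 5.63. Knockout replicate 3 and wild-type replicate 3 were level, and the log2 fold change was -0.58 (adjusted p = 0.554).

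The promoters of Pla2g4a, Slc44a1 and Lpcat4 are shown because these genes had the largest differences of either sign among the named members with a promoter entry; each runs from 250 bases before to 50 after an annotated start (RefSeq, GRCm38.p6). Of the 49 members 40 had an entry. Pla2g4a and Slc44a1 had 2 entries each and Lpcat4 had 1. Only the first entry of each gene is shown and described. Searched on both strands were the TATA box TATAAA, the CCAAT box, the GC box GGGCGG, the E box CACGTG and the AP-1 site TGANTCA, which occurred in 13.6%, 37.4%, 35.7%, 7.15% and 7.81% of the 32851 promoters in the table. Capitals mark the matches, all of them GC boxes (CCGCCC on the opposite strand), of which a pair in Slc44a1 overlap each other. The Pla2g4a promoter is at chr1:149961241-149961540 (minus strand), that of Slc44a1 at chr4:53440163-53440462 (plus strand) and that of Lpcat4 at chr2:112239591-112239890 (plus strand).
Pla2g4a: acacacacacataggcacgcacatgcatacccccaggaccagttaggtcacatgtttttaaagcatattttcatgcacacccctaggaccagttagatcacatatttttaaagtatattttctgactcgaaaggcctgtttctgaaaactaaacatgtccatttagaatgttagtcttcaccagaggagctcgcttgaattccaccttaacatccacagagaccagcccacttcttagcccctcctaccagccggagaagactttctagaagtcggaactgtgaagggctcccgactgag
Slc44a1: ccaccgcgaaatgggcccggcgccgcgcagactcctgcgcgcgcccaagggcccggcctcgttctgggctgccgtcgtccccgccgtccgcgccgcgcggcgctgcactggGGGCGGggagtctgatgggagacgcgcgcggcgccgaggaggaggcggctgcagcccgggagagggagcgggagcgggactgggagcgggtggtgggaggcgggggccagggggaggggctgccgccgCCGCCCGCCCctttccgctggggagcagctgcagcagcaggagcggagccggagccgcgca
Lpcat4: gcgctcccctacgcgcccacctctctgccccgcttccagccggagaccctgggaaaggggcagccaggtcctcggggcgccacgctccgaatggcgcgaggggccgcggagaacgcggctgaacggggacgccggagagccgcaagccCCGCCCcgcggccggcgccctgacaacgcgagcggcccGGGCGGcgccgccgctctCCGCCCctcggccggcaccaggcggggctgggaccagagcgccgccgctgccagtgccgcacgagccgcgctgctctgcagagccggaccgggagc

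The promoter shown for Pla2g4a holds none of the searched motifs and is 45.3% G and C. Those shown for Slc44a1 and Lpcat4 hold 3 GC boxes each. They are 79.7% and 79.0% G and C, beside a median of 52.67% over all promoters. Among the 59 promoter entries of members 39 held a GC box, and their median content was 63.0% G and C. The table also holds promoters of noncoding genes, so these shares describe sequence composition and nothing about factors bound there.

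Atp10d, a flippase whose human form moves glucosylceramide, had the largest difference of all members. It read 3.99, 3.66 and 3.999 on the knockout arrays and 5.37 and 5.50 in wild type. Every knockout array lay far below both wild-type arrays, beside a narrow spread within each group. Mean levels of 3.88 ± 0.20 (SD, n = 3) in knockout and 5.44 ± 0.09 (SD, n = 2) in wild type made a 2.94-fold difference (log2 fold change -1.55 ± 0.14, SE) that narrowly missed the threshold (adjusted p = 0.0705). It passed the threshold after a further quantile normalization (adjusted p = 0.0207), with array medians subtracted (adjusted p = 0.0275), without dim genes (0.0317) and without genes of equal values (0.0236), and in none of the other 11 alternatives, whose adjusted p reached 0.355. No array exceeded the antigenomic background for this gene. Its probe set is annotated to chr5:72594568-72690001 (NCBIM37), on the same chromosome as Abcb4 at chr5:8893717-8959226. The members Pisd (log2 fold change -0.01) and Atp8a1 (0.07), both below background, lie on that chromosome too. A part of the shared chromosome in the Atp10d difference was not tested.

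**Figure D3:**
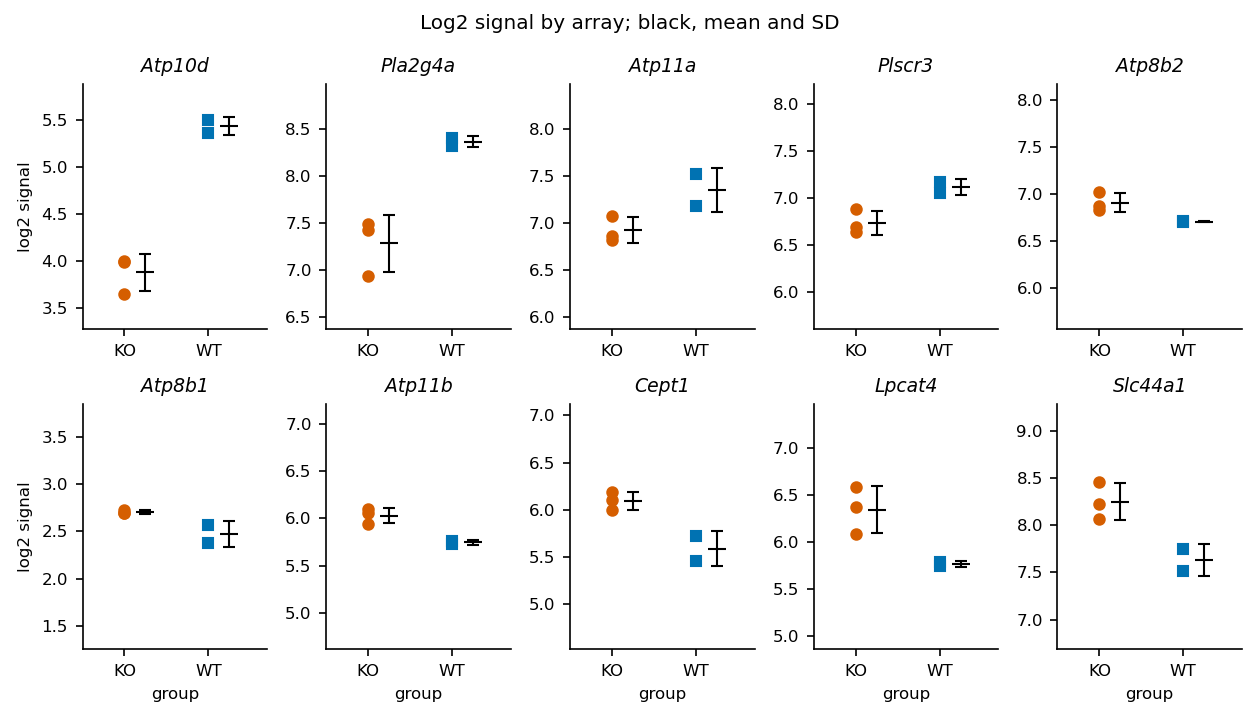
Each panel shows 1 of the 10 members with a difference of at least 2-fold, or with groups that did not overlap and an unadjusted p under 0.05, as log2 signal by group; orange circles are the 3 knockout arrays, blue squares the 2 wild-type arrays and black bars the mean and SD. All panels span the same range of log2 units, and Atp10d and Pla2g4a show the widest gaps.

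The other flippases differed by smaller amounts and in both directions. Atp11a, a phosphatidylserine flippase of the plasma membrane, read 6.83, 6.86 and 7.08 against 7.52 and 7.19, which is -0.43 ± 0.15 log2 units (SE; adjusted p = 0.360), with the nearest arrays of the groups close together. Its relative Atp11b, found in endosomes, read 6.10, 5.94 and 6.06 against 5.73 and 5.76, which is 0.29 ± 0.06 log2 units (SE; adjusted p = 0.195). Atp11b exceeded background on 3 arrays. Atp8b2, a phosphatidylcholine flippase of the plasma membrane, read 6.83, 6.88 and 7.02 against 6.71 and 6.71, which is 0.20 ± 0.07 log2 units (SE; adjusted p = 0.352). All 3 genes had groups that did not overlap.

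Atp8b1, whose human orthologue is mutated in inherited cholestasis, read 2.70, 2.70 and 2.73 against 2.38 and 2.57 (log2 fold change 0.23 ± 0.07, SE; adjusted p = 0.287), far below background on every array. Tmem30a, the subunit that most of these flippases need to leave the endoplasmic reticulum, lay above background on every array and had a log2 fold change of 0.13 (95% interval -0.06 to 0.33). Atp8a1, Atp9a and Atp10a had log2 fold changes of 0.07, -0.14 and 0.17. Atp8a2 was equal on all 5 arrays. These 4 lay below background throughout.

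Among the scramblases, Plscr3, the mitochondrial phospholipid scramblase, read 6.69, 6.88 and 6.64 on the knockout arrays and 7.17 and 7.05 in wild type. The groups did not overlap, and the log2 fold change was -0.37 ± 0.10 (SE; adjusted p = 0.255). Plscr1, Plscr2 and Plscr4 lie on chromosome 9, between positions 92145086 and 92387354 (NCBIM37). Plscr1, an interferon-inducible member of the family, read 6.97, 6.99 and 6.25 against 6.85 and 7.18, and Plscr2 6.81, 6.63 and 4.88 against 6.50 and 6.50. Both were lowest on knockout replicate 3, while Plscr4 was highest there, at 3.64 against 3.40 on each other array. A second probe set named Plscr1 but annotated to chromosome 1 gave the same order among the knockout arrays, at 6.67, 6.72 and 5.97. Xkr8, which scrambles phosphatidylserine in dying cells, read 3.995, 4.43 and 4.82 against 4.26 and 4.43.

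The arrays of the knockout group differed among themselves by 0.5 or more for 10 of the 49 members, and by 1 or more for Plscr2 alone. Knockout replicate 2 lay farthest from the other knockout arrays for 19 members, replicate 3 for 15 and replicate 1 for 9, and 6 had no single farthest array. Of the members 4 had equal values on all 5 arrays (Etnk2, Mboat2, Pla2g10 and Atp8a2) and 23 others had some tied values.

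**Figure D4:**
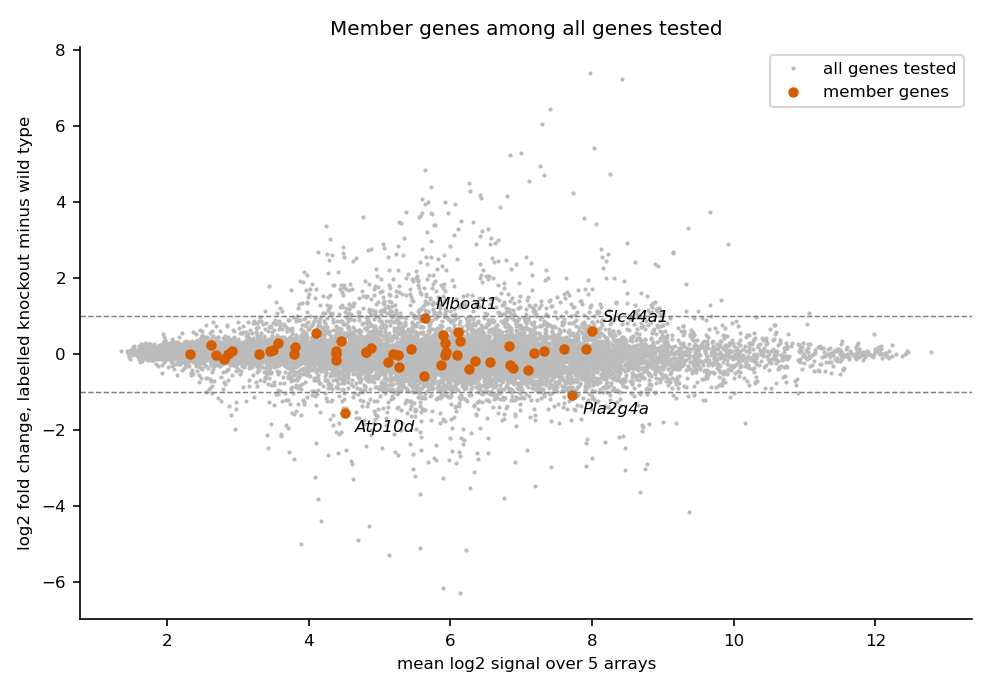
Each grey point is 1 of the 21630 genes tested and each orange point 1 of the 49 members, by mean log2 signal over the 5 arrays and log2 fold change, labelled knockout minus wild type; dashed lines mark a 2-fold difference. The members lie within the cloud of all genes, between -1.55 for Atp10d and 0.96 for Mboat1.

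Beyond the members, 108 further genes of phospholipid synthesis, breakdown and transport were measured, and 1 passed the test, beside 0.301% of all genes. Enpp2, which encodes autotaxin, the secreted enzyme that cuts choline from lysophosphatidylcholine, rose from 3.34 and 3.78 in wild type to 7.92, 7.99 and 8.30 (adjusted p = 0.0296). That call ended without any single knockout array (limma adjusted p = 0.0845 to 0.175), and with the replicate number as a block (adjusted p = 0.351). The log2 fold change of 4.51 lay between 4.395 and 4.58 in those fits, and was 4.29 or 4.73 with 1 wild-type array left out. Knockout replicate 1 has no wild-type array of its number, so the block takes it up and leaves fewer residual degrees of freedom. At an unadjusted p under 0.05, 3 of these genes were higher (2.78%) and 18 lower (16.7%), beside 5.36% and 8.29% of all genes. The groups did not overlap for 10 with knockout higher (9.26%) and 24 with knockout lower (22.2%), beside 10.6% and 14.4% of all genes. This list too was chosen with earlier results known, and its shares are description only.

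The 3 further genes with the largest negative differences and no overlap were Gdpd1, Abca3 and Lypla1. Gdpd1, a lysophospholipase D, read 4.36, 5.70 and 4.71 against 6.45 and 6.30 (log2 fold change -1.45 ± 0.48, SE; adjusted p = 0.342), with knockout replicate 2 the highest of its group. Abca3, a phospholipid pump known from lung surfactant bodies, read 5.29, 5.49 and 5.76 against 6.69 and 6.59 (-1.13 ± 0.16, SE; adjusted p = 0.134). Lypla1, which cleaves lysophospholipids and palmitoylated proteins, read 6.18, 6.78 and 6.35 against 7.37 and 7.69 (-1.09 ± 0.24, SE; adjusted p = 0.211). On the higher side, after Enpp2 and Abcb4, came Tmem189, the plasmalogen desaturase, at 6.72, 6.55 and 6.53 against 6.22 and 5.25 (0.86 ± 0.34, SE; adjusted p = 0.427). Against wild-type replicate 3 alone that difference was 1.35, and against replicate 2 alone it was 0.38.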

How the data were processed

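The deposited log2 signals, 1 per probe set and array, came from Affymetrix Expression Console, per the submitters' processing notes. How probes were summarised and arrays normalized is not given in the sources used here. A second deposited table held the same log2 values (0 differences in 35556 probe sets). After removal of 7115 control probe sets, symbols were updated through RefSeq names (GRCm38.p6, names only), and the brightest probe set by the mean of 5 arrays stood for each of 21630 genes. Members were read by the symbol in the array annotation; the update changed 0 of their 49 probe sets. Coordinates are those of the annotation, taken as NCBIM37 because 2759 of 2955 rows stating a position in that build overlap it.

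The test was limma 3.58.1 (lmFit and eBayes, R 4.3.3) without a block, leaving 3 residual degrees of freedom. Benjamini-Hochberg adjustment ran over all genes, and the threshold was 0.05. The fit was tested on simulated data with the means and spreads of these genes. It recovered 50.6%, 77.2% and 93.5% of changes of 1, 2 and 4 log2 units, with 12.9 false calls per data set. Changed genes were drawn from all genes, among them the 1589 equal on all arrays, whose simulated noise was 0. These rates may therefore overstate recovery for genes with a spread between arrays. Members and gene lists were chosen with earlier results of these data known. Named on every array were members differing at least 2-fold, or without overlap and with an unadjusted p under 0.05. Of the 108 further genes, those past the threshold and the 3 largest non-overlapping differences in each direction were named. Array values of other genes, such as Mboat1, Pcyt2, Plscr2 and Thy1, are given after their values were seen. Precision is limited by having 5 arrays. Alternatives tried were quantile normalization on top of the deposited values, array medians subtracted, removal of dim genes (below the 40th percentile) or of genes with equal values, the mean of all probe sets, trended or robust prior variances, array weights, the replicate block, symbols without update, and leaving out each array.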

Additional observations from a re-analysis of the deposited data

How the results depend on the processing

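No member passed the test except Atp10d, under 4 of 15 alternatives. The count of members past the threshold was 1 on quantile normalization, on subtraction of array medians, without dim genes and without genes of equal values, and 0 in the others. Over all genes the count moved from 65 to 363, 250, 270 and 359 under those 4, and to 107 with array weights. With the replicate number as a block, which leaves fewer than the 3 residual degrees of freedom of the main fit, the count was 0 (2319 genes unadjusted). It lay between 0 and 335 when 1 array was left out: leaving out knockout replicate 1 or 3 gave 0 (2297 and 2196 at an unadjusted p under 0.05), knockout replicate 2 gave 2, and wild-type replicates 2 and 3 gave 189 and 335. The members' median log2 fold change, 0.018, became 0.033 on quantile normalization, -0.018 on subtraction of array medians and 0.063 without genes of equal values, and lay between 0.000 and 0.021 with 1 array left out. The further genes past the threshold numbered 0 with the replicate block and 0 to 2 with 1 array left out, the other being Pla2g4e without wild-type replicate 3. The limma fit draws the spread of each gene toward a common prior SD. That prior SD was 0.028 (0.63 prior degrees of freedom) with the 1589 genes equal on all arrays, and 0.084 (1.44) without them. The part of this in the shifts above, and any other cause, was not tested. Of the members 14, none of them among the 10 described on every array and none differing by more than 0.40, changed sign in at least 1 alternative. Labels give replicates 2 and 3 in both groups and replicate 1 in knockout alone. Knockout replicate 1 is therefore taken up by its own block. Calls lost in that fit cannot tell a shared batch from fewer degrees of freedom. The deviations of the arrays numbered 2 correlated at -0.17, a single contrast, and whether the numbers mark a shared batch was not tested. Of the members 26 were below background on every array, and their differences are those of dim probe sets.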
